A study of Homo sapiens with 179 samples.

Results

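Collagens are the most abundant proteins of the extracellular matrix, and each is built from 3 α chains that wind into a triple helix. The genes described here are those whose symbol is COL, a number, A and a number, as in COL4A1, where the first number is the collagen type and the second the chain. This rule found 43 of the 19084 genes in the tables: 11 fibrillar chains, 6 basement membrane chains (COL4A1 to COL4A6) and 26 chains of other kinds. RNA-seq measured them in H1, an established line of human embryonic stem cells, grown on Matrigel, a basement membrane extract, in the defined medium E8. Of 179 libraries, 6 were made with the Illumina TruSeq RNA kit v2 and the rest by LM-Seq. LM-Seq is a protocol that draws mRNA from 100 ng of total RNA with oligo-dT beads and reverse-transcribes it from random hexamers.

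LM-Seq gave 95 libraries in Lane 1, 48 in Lane 2, 24 in Lane 3 and 6 in Lane 4, so each later lane was shared by fewer. The TruSeq libraries were H1p43 and H1p16 (n = 3 each), with 12 samples sharing a lane. All groups share the cell line, the plate coating and the medium, and the labels name no other treatment. The letter p in these names is not explained in the labels. LM-Seq titles hold a library number, often the same in several lanes, and whether such a number is 1 library sequenced again is not said. Nothing in the labels says that replicates are separate cultures, so p-values measure how far these libraries vary, which may be technical variation.

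The lowest and highest totals of expected counts per library were 1040667 and 1539268 for Lane 1, 2005728 and 2739067 for Lane 2, 4028604 and 4918554 for Lane 3, and 15780048 and 16583038 for Lane 4. H1p43 libraries had 29018110 to 35852620, and H1p16 libraries 23680509 to 30628671. TPM is a transcript level scaled by length and library total. A pair of library numbers, called library A and library B here, stood apart. They had the 2 lowest mean correlations with the other libraries in Lane 1, and again in Lane 2. These were taken over all genes averaging at least 5 TPM in the lane. Of the markers of the labelled cell type, all 6 pluripotency genes examined averaged 1 TPM or more in every group. DCN, LUM and FAP, which mark fibroblasts, were at 0 in every group. THY1 and TAGLN, from the same list of 12 fibroblast markers, were present. They make up most of each fibroblast sum given below, which therefore follows 2 genes. In bulk RNA, fewer cells of a type and less RNA per cell cannot be told apart.

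Fibrillar collagens, such as types I, II, III, V and XI, assemble into the cross-striated fibrils of connective tissue and cartilage. Type IV collagen instead forms the sheet-like network of basement membranes, in which COL4A1 and COL4A2 make the trimer found in nearly all tissues. The other kinds include FACITs, which sit on fibril surfaces, beaded filaments of type VI, transmembrane collagens and multiplexins such as type XVIII. The 6 type IV genes lie in 3 pairs that are transcribed away from each other from a shared stretch of DNA.

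That arrangement is visible in RefSeq's promoter windows of 300 bases (250 before a start site and 50 after it, build GRCh38.p14), which were found for 31 of the 43 collagen genes. COL4A1 starts at position 110307157 and COL4A2 at 110307284 of chromosome 13. The nearest start sites lay 419 bases apart for COL4A3 and COL4A4, and 380 for COL4A5 and COL4A6. The windows below are shown because each holds DNA between or beside a divergent pair of chains whose levels are compared in what follows. They are COL4A2 (chr13:110307034-110307333, plus strand), COL4A3 (chr2:227164374-227164673, plus strand), COL4A5 (chrX:108439588-108439887, plus strand) and COL4A6 (chrX:108439409-108439708, minus strand). Capitals mark the CCAAT box (CCAAT) and the GC box (GGGCGG), each on either strand, and these motifs do not overlap here.
COL4A2: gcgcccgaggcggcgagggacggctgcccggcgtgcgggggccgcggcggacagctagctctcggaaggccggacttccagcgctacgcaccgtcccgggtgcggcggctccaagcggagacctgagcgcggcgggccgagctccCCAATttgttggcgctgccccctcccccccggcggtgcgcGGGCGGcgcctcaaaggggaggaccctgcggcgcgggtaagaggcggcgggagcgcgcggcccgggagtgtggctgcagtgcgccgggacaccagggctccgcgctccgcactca
COL4A3: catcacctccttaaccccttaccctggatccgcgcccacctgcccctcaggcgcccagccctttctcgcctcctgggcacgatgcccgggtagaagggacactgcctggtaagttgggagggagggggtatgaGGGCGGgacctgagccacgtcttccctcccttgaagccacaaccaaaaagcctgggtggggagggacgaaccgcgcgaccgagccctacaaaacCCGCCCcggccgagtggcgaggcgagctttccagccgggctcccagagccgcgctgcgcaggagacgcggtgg
COL4A5: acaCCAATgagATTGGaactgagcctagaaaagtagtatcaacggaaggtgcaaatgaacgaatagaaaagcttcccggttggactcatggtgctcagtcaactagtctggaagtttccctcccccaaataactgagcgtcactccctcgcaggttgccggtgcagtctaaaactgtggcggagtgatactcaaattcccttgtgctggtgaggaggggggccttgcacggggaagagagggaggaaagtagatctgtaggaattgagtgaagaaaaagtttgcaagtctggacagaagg
COL4A6: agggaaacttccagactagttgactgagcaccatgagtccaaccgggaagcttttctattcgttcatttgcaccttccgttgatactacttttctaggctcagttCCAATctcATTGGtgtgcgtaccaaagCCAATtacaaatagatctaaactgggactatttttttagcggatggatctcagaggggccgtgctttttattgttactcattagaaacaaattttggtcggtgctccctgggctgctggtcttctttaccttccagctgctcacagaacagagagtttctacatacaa

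The COL4A2 window, which takes in the COL4A1 start site, held both a CCAAT box and a GC box. The COL4A3 window held GC boxes and no CCAAT box, the COL4A4 window held neither, and the printed COL4A5 and COL4A6 windows held CCAAT boxes and no GC box. The window of another COL4A6 start site, not printed, held a GC box and no CCAAT box. Over all 35116 windows, 34.6% held a CCAAT box and 44.95% a GC box, so neither motif is rare, and a match is a description and not a binding site.

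H1 cells carried a broad set of collagen transcripts, and few of them were abundant. Of the 43 genes, 23 reached a mean of 5 TPM in at least 1 group, 7 stayed between 1 and 5 TPM and 13 stayed below 1 TPM in all 6 groups. COL18A1, the type XVIII multiplexin of basement membranes whose C-terminal fragment is endostatin, was the highest in every group. It stood at 139.1 ± 3.30 TPM in Lane 4 (SD, n = 6), 204 ± 2.93 in H1p43 and 174 ± 12.3 in H1p16 (n = 3 each). In H1p43 it made up 27.5% of all collagen TPM. After it in Lane 4 came COL4A1, COL1A1, COL4A2, COL6A2 and COL1A2, whose means ran from 93.4 to 62.99 TPM. In H1p43 the order after COL18A1 was COL6A1, COL6A2, COL9A3, COL4A2 and COL1A2, with neighbouring means close together.

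Summed by class, fibrillar chains made up 31.3% of collagen TPM in Lane 4, 21.9% in H1p43 and 20.9% in H1p16. The type IV chains, which alone form the basement membrane class here, made up 22.5%, 16.5% and 16.3% in the same groups. The other chains, COL18A1 among them, made up 46.2%, 61.6% and 62.8%. COL18A1, also a basement membrane collagen, made up 16.7%, 27.5% and 28.6% by itself. Placing it with the type IV chains would make the share of that class lower in Lane 4 than in TruSeq. The 6 Lane 4 libraries lay between 30.6% and 31.8% for the fibrillar share, above all TruSeq libraries, which lay between 20.5% and 21.9%. Within LM-Seq the fibrillar share averaged 31.1% in Lane 1, 31.05% in Lane 2, 31.2% in Lane 3 and 31.3% in Lane 4. All chains together summed to 785 to 865 TPM in Lane 4, 736 to 751 in H1p43 and 575 to 642 in H1p16.

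**Figure D1:**
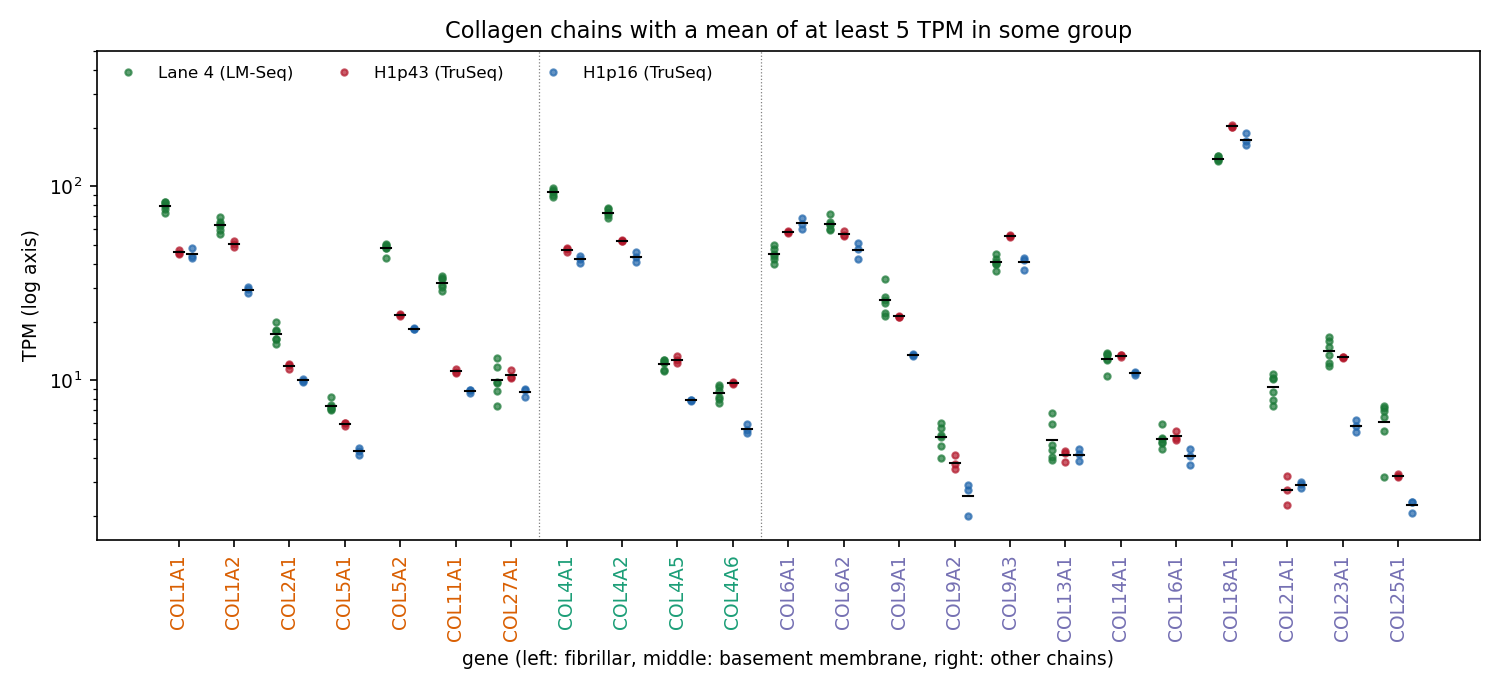
TPM (log axis) of the 23 collagen chains that average 5 TPM or more in some group. Points are libraries of Lane 4 (green, n = 6), H1p43 (red, n = 3) and H1p16 (blue, n = 3), and black bars are means; COL18A1 is highest in each group.

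Several chains with well-known roles in connective tissue were all but absent. COL3A1, the type III fibrillar chain, averaged 0.133 TPM in Lane 4, 0.040 in H1p43 and 0.057 in H1p16. COL4A3, a chain of the specialised basement membranes of kidney, lung and inner ear, averaged 0.187, 0.137 and 0.087 TPM in those groups. COL4A4, its divergent neighbour, averaged 0.432, 0.360 and 0.350 TPM. Both were thus far below the COL4A1 and COL4A2 pair and the COL4A5 and COL4A6 pair. COL10A1, the hypertrophic cartilage chain, stayed below 1 TPM in every group. COL19A1 had no counts in any Lane 4 or H1p16 library, and 0.01 to 0.02 TPM in H1p43. At the smallest Lane 4 total, a count of 0 allows up to 3 counts, for counting error only.

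More chains were detected in deeper libraries. With at least 1 count required, a mean of 34.4 of the 43 chains were detected in Lane 1, 36.4 in Lane 2, 37.4 in Lane 3 and 39.3 in Lane 4. All 43 were detected in each H1p43 library, and 41 to 42 in the H1p16 libraries. When every library was thinned to the smallest total, 1040667 counts, the means were 33.9 in Lane 1, 33.98 in Lane 2, 33.8 in Lane 3 and 35 in Lane 4. At that depth they were 35.7 in H1p43 and 34.3 in H1p16. Thinned H1p43 libraries ran from 34 to 38 chains and thinned H1p16 libraries from 33 to 36, so these ranges overlapped.

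The first comparison set H1p43 against H1p16, within the TruSeq kit. Most collagen chains were higher in H1p43: of 35 tested, 25 rose, 4 fell and 6 were not called by the quasi-likelihood test of edgeR at a Benjamini-Hochberg adjusted p below 0.05. These groups differed widely, since 71.8% of all 14574 genes tested were called, which is 36.4% higher and 35.4% lower. The called share of collagens, 29 of 35, is to be read against that background, and the lean of the collagens toward higher values is seen in their median log2 fold change of 0.24, beside 0.01 over all genes. The changes were modest: 2 collagens changed at least 2-fold, COL8A2 and COL23A1, both higher. That criterion was met by 7.28% of all genes, and by 5.69% of all genes in the higher direction. Values of 28 collagens did not overlap between the groups, as was so for 73.7% of all genes. On the TPM scale (limma on log2(TPM + 1)), 24 of 29 collagens were higher and 2 lower, while all genes shifted by a median of 0.09, with 6132 higher and 3423 lower calls.

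Among fibrillar chains, the partners of type I collagen parted. COL1A2, which supplies the single α2 chain of the type I trimer, was at 52.5, 48.9 and 50.6 TPM in H1p43, against 30.2, 28.2 and 29.4 TPM in H1p16. No libraries overlapped, and the log2 fold change was 0.68 ± 0.03 (SE, adjusted p = 3.9e-12). COL1A1, which supplies the paired α1 chains, was at 47.1, 45.4 and 44.7 TPM in H1p43, against 48.0, 43.9 and 42.9 TPM in H1p16, and these ranges overlapped. Its log2 fold change was -0.08 ± 0.04 (adjusted p = 0.047), but it was 0.03 on the log2(TPM + 1) scale, so no direction can be given. The call was also lost without H1p16 replicate 1 (adjusted p = 0.18), H1p43 replicate 2 (0.11) or H1p43 replicate 3 (0.18). The ratio of COL1A1 to COL1A2, in TPM, was 0.884 to 0.928 in H1p43, against 1.46 to 1.59 in H1p16. An exact two-sided permutation test of its log2 gave p = 0.1 (adjusted 0.12 over 6 chain ratios), and 0.1 is the smallest that 3 against 3 libraries allow.

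The remaining fibrillar chains above 5 TPM rose by less than COL1A2. COL5A1, a minor fibril chain that helps to start fibrils, was at 5.99, 6.04 and 5.83 TPM in H1p43, against 4.47, 4.31 and 4.11 TPM in H1p16 (log2 fold change 0.36 ± 0.05, adjusted p = 4.0e-06). Its partner COL5A2 was at 21.9, 21.5 and 21.7 TPM in H1p43, against 18.6, 18.3 and 18.4 TPM in H1p16 (0.12 ± 0.03, adjusted p = 0.0015). Both chains were separated between the groups without overlap. COL11A1, the type XI chain of cartilage fibrils, was at 10.9, 11.5 and 11.1 TPM in H1p43, against 8.89, 8.63 and 8.96 TPM in H1p16 (0.23 ± 0.04). COL2A1, the main cartilage chain, was at 11.5, 12.2 and 11.9 TPM in H1p43, against 9.81, 10.2 and 9.93 TPM in H1p16 (0.14 ± 0.05). This call had an adjusted p of 0.0099 in edgeR and 0.061 in DESeq2. COL27A1, a fibrillar chain of growth cartilage, was at 10.4, 11.4 and 10.3 TPM in H1p43, against 9.01, 8.95 and 8.18 TPM in H1p16 (0.19 ± 0.05, adjusted p = 0.0042). Each of COL11A1, COL2A1 and COL27A1 was higher in all H1p43 libraries. The low chains COL5A3, COL11A2 and COL24A1 also rose, by 0.74, 0.56 and 0.74. COL3A1 was too low to be tested.

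**Figure D2:**
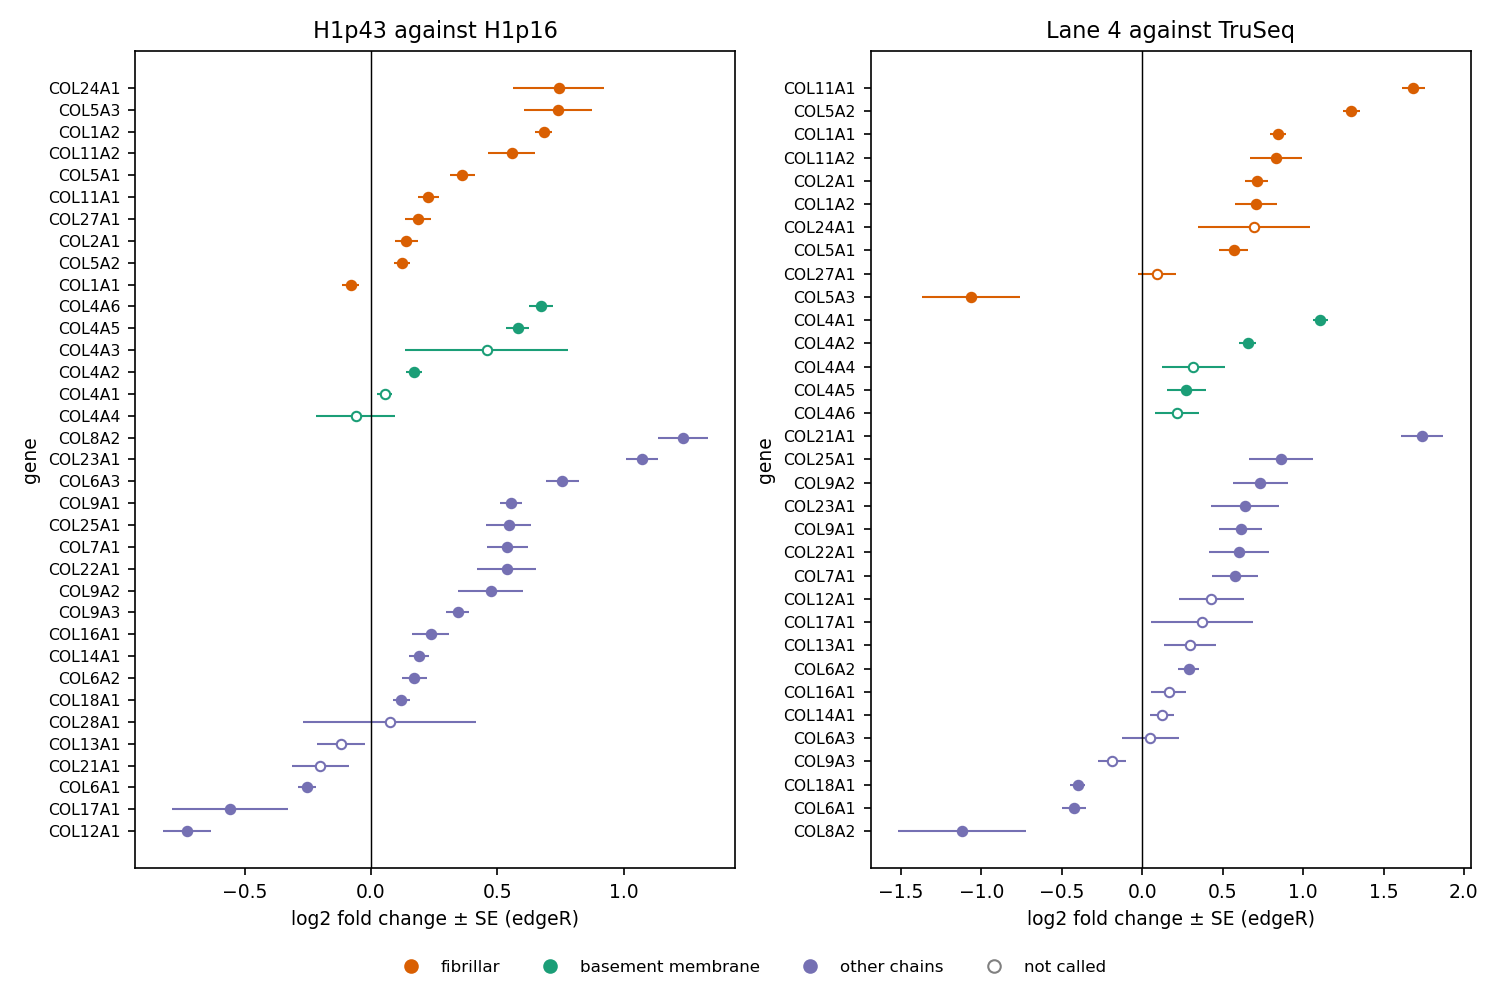
Log2 fold changes ± SE (edgeR) of the collagen chains tested in H1p43 against H1p16 (left) and in Lane 4 against TruSeq (right), by class. Filled points were called and open points were not; most filled points lie right of 0, for 25 chains in the left panel and 18 in the right.

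In the basement membrane class, the 2 chains that share an X-linked divergent promoter rose most. COL4A6 was at 9.58, 9.65 and 9.76 TPM in H1p43, against 5.98, 5.37 and 5.56 TPM in H1p16 (log2 fold change 0.67 ± 0.05, adjusted p = 7.8e-10). COL4A5, the chain altered in X-linked Alport syndrome, was at 12.2, 12.7 and 13.4 TPM in H1p43, against 7.87, 7.93 and 7.92 TPM in H1p16 (0.58 ± 0.04, adjusted p = 1.9e-09). Neither chain overlapped between groups, and the ratio of COL4A5 to COL4A6 was 1.28 to 1.37 in H1p43, against 1.32 to 1.48 in H1p16. Those ratios overlapped (exact two-sided permutation p = 0.2).

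The chromosome 13 pair moved less. COL4A2 was at 52.3, 52.6 and 52.5 TPM in H1p43, against 45.8, 43.2 and 40.7 TPM in H1p16, with a log2 fold change of 0.17 ± 0.03 (adjusted p = 1.6e-04). COL4A1 was at 47.4, 45.7 and 47.9 TPM in H1p43, against 43.9, 42.1 and 40.2 TPM in H1p16. Its groups did not overlap in TPM, yet edgeR gave 0.05 ± 0.03 (adjusted p = 0.13), while the TPM scale gave 0.16 (adjusted p = 0.0037). Without H1p16 replicate 1 the edgeR test called it at 0.07 (adjusted p = 0.025). COL4A3 and COL4A4, each below 0.5 TPM in these groups, were not called, with log2 fold changes of 0.46 ± 0.32 and -0.06 ± 0.16.

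Among the other chains, the largest changes were in chains of low to middle level. COL8A2, a short chain of corneal and vascular basement membranes, was at 4.05, 4.10 and 4.12 TPM in H1p43, against 1.70, 1.76 and 1.36 TPM in H1p16 (log2 fold change 1.24 ± 0.10, adjusted p = 3.8e-09). COL23A1, a transmembrane collagen, was at 13.1, 13.1 and 13.2 TPM in H1p43, against 6.23, 5.80 and 5.40 TPM in H1p16 (1.07 ± 0.06, adjusted p = 5.1e-11). In both, every H1p43 library was more than 2-fold above every H1p16 library. COL25A1, another transmembrane chain, was at 3.19, 3.22 and 3.27 TPM in H1p43, against 2.37, 2.07 and 2.35 TPM in H1p16 (0.55 ± 0.09). COL13A1, also of this kind, was at 4.24, 4.33 and 3.81 TPM in H1p43, against 4.19, 4.40 and 3.82 TPM in H1p16, and was not called.

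The 3 chains of type IX collagen, a FACIT of cartilage fibrils, all rose. COL9A1 was at 21.3, 21.5 and 21.3 TPM in H1p43, against 13.4, 13.7 and 13.3 TPM in H1p16 (log2 fold change 0.55 ± 0.04, adjusted p = 3.5e-09). COL9A2 was at 3.70, 3.49 and 4.11 TPM in H1p43, against 2.90, 2.71 and 2.0 TPM in H1p16 (0.47 ± 0.13). COL9A3 was at 56.3, 54.6 and 55.3 TPM in H1p43, against 41.8, 42.8 and 36.96 TPM in H1p16 (0.34 ± 0.04). The groups did not overlap for any of them. The FACITs COL14A1 and COL16A1 rose by 0.19 ± 0.04 and 0.24 ± 0.07. COL14A1 was at 13.6, 13.1 and 13.5 TPM in H1p43, against 10.6, 10.9 and 11.1 TPM in H1p16. COL16A1 was at 5.47, 5.03 and 4.92 TPM in H1p43, against 4.44, 4.06 and 3.67 TPM in H1p16, and lost its call without H1p43 replicate 1 (adjusted p = 0.051). COL21A1 was at 3.20, 2.71 and 2.28 TPM in H1p43, against 2.99, 2.91 and 2.8 TPM in H1p16, and was not called except without H1p43 replicate 1 (-0.34, adjusted p = 0.015).

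The beaded filament partners COL6A1 and COL6A2 went opposite ways. COL6A1 fell to 58.7, 57.9 and 57.6 TPM in H1p43, against 68.7, 64.04 and 60.3 TPM in H1p16 (log2 fold change -0.26 ± 0.04, adjusted p = 4.5e-06). COL6A2 was at 58.9, 56.04 and 55.3 TPM in H1p43, against 51, 47.7 and 41.97 TPM in H1p16 (0.17 ± 0.05, adjusted p = 0.0040). Their ratio was 0.998 to 1.04 in H1p43, against 1.34 to 1.44 in H1p16, with no overlap (exact two-sided permutation p = 0.1, the smallest possible). COL6A3, the third type VI chain, stayed below 5 TPM and rose by 0.76 ± 0.07. COL18A1 was at 207, 202 and 202 TPM in H1p43, against 187, 171.44 and 163.27 TPM in H1p16 (0.12 ± 0.03, adjusted p = 0.0031). The 2 further chains called lower were the low ones COL12A1 (-0.73 ± 0.10) and COL17A1 (-0.56 ± 0.23, edgeR adjusted p = 0.038). COL17A1 overlapped between the groups, at 0.33 to 0.41 TPM in H1p43 and 0.35 to 0.61 TPM in H1p16.

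**Figure D3:**
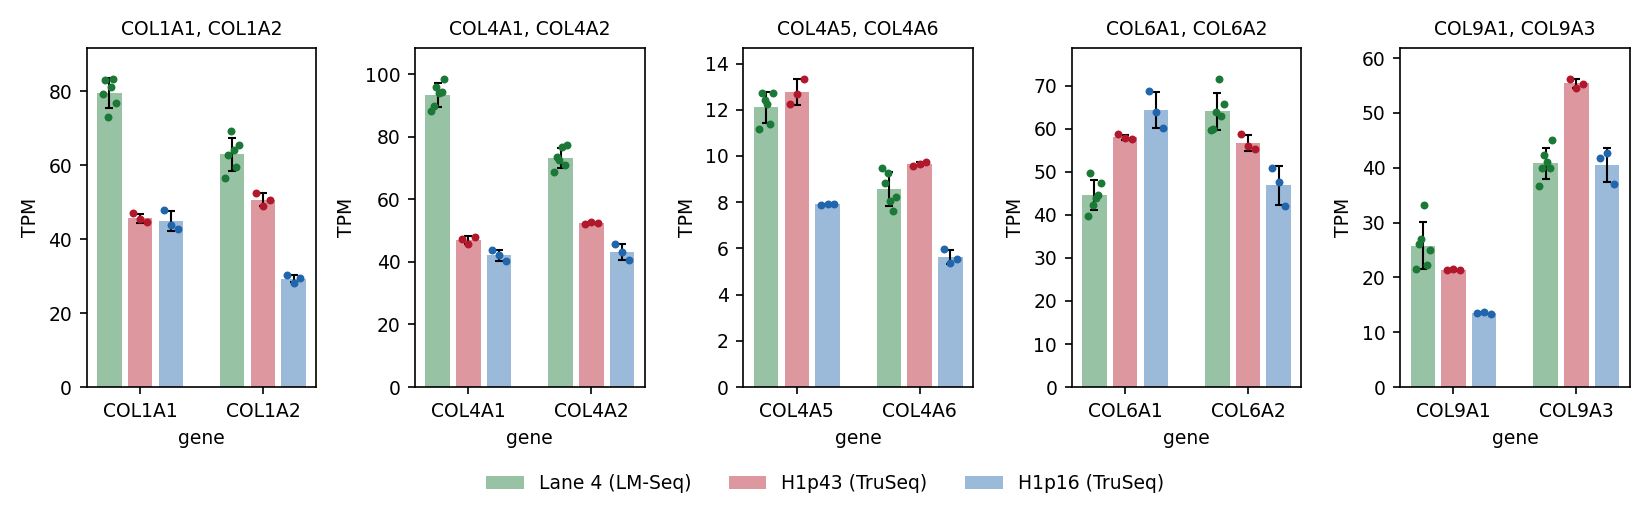
TPM of chains that share a type, for Lane 4 (green, n = 6), H1p43 (red, n = 3) and H1p16 (blue, n = 3), with means as bars, SD as error bars and libraries as points. COL1A2, COL4A5, COL4A6 and COL9A1 are higher in H1p43 than in H1p16 in every library, while COL1A1 is not and COL6A1 is lower.

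Genes whose products fold, export, bind or degrade collagen were counted from lists beside the chains. The called shares are to be read against the 71.8% of all genes called here. Median log2 fold changes were 0.07 for folding enzymes, 0.30 for export, processing and crosslinking genes, 0.24 for receptors, 0.29 for degradation genes and 0.33 for other basement membrane genes, beside 0.01 over all genes. Of 16 tested folding and modifying enzymes, 8 rose and 4 fell, a called share near that of all genes. GLT25D1, a collagen galactosyltransferase, averaged 44.1 ± 0.07 TPM in H1p43 and 29.04 ± 0.38 in H1p16 (log2 fold change 0.49 ± 0.03). SERPINH1, the collagen chaperone HSP47, averaged 488 ± 3.95 TPM in H1p43 and 535 ± 25.4 in H1p16 (-0.24 ± 0.03). Of 16 export, processing and crosslinking genes, 10 rose and 3 fell, with LOXL2 at 0.53 ± 0.04 and LOXL3 at -1.22 ± 0.08, both lysyl oxidase-like enzymes. Of 6 receptors, 4 rose and 2 fell, and of 8 degradation genes, 7 rose and 1 was called lower. MMP14, a membrane-bound collagenase, rose by 0.25 ± 0.03. The lower call was TIMP1, an inhibitor of collagenases, at -0.10 ± 0.04, although its mean TPM was 107.62 ± 1.59 in H1p43 and 106.85 ± 5.08 in H1p16, so no direction can be given.

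Of the 11 other basement membrane genes, 9 rose and 1 fell. HSPG2, which encodes perlecan, averaged 27.2 ± 0.77 TPM in H1p43 and 12.5 ± 1.2 in H1p16 (log2 fold change 1.02 ± 0.04). LAMB1, a laminin chain, averaged 31.8 ± 0.58 TPM in H1p43 and 17.8 ± 0.20 in H1p16 (0.73 ± 0.03). Alongside, 5 of 6 pluripotency genes fell, their summed level being 5918 to 5953 TPM in H1p43 and 6860 to 7139 TPM in H1p16. The fibroblast list summed to 701 to 727 TPM in H1p43 and 702 to 734 TPM in H1p16, with 3 of its 12 genes at 0 throughout. These like sums hide opposite changes: of 7 genes tested, 4 rose and 3 fell, where 71.8% of all genes were called. THY1 averaged 387 TPM in H1p43 and 495 in H1p16, and TAGLN 307 and 212 TPM. The cartilage and neural crest list summed to 19.02 to 19.9 TPM in H1p43 and 13.4 to 14.4 TPM in H1p16. Most of that sum was NGFR (means 10.8 and 7.57 TPM) and SOX9 (5.96 and 4.63 TPM). The cartilage genes ACAN (0.18 and 0.253 TPM) and MATN1 (0.277 and 0.06 TPM) were far lower. Of 4 list genes tested, 3 rose and 1, ACAN, fell. The part of this list in the collagen differences was not tested.

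The second comparison set LM-Seq, at its deepest in Lane 4, against the 6 TruSeq libraries. Library type and cells cannot be told apart here, because no label says that both kinds were made from the same RNA. Collagens again leaned higher: of 33 tested, 18 rose, 4 fell and 11 were not called, when 71.3% of all 13827 genes were called, 34.3% higher and 36.9% lower. Their median log2 fold change was 0.57, beside -0.06 for all genes. At least 2-fold changes were seen in 6 collagens, 4 higher and 2 lower, when 24.1% of all genes met this, 9.02% higher and 15.1% lower. TPM ranges did not overlap for 12 collagens, against 53.9% of all genes. The count of calls was 24 (22 higher, 2 lower) against the H1p16 libraries alone and 21 (16 higher, 5 lower) against the H1p43 libraries alone.

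Of 10 fibrillar chains tested, 7 rose and 1 fell, and 2 of the 4 collagens at least 2-fold higher, COL11A1 and COL5A2, were fibrillar. COL11A1 was at 28.8 to 34.6 TPM (median 32.3) in Lane 4, against 10.9 to 11.5 TPM in H1p43 and 8.63 to 8.96 TPM in H1p16 (log2 fold change 1.68 ± 0.07, adjusted p = 7.8e-12). COL5A2 was at 42.9 to 50.4 TPM (median 48.7) in Lane 4, against 21.5 to 21.9 TPM in H1p43 and 18.3 to 18.6 TPM in H1p16 (1.30 ± 0.05, adjusted p = 5.7e-12). Every Lane 4 library was above every TruSeq library for both. COL1A1 was at 72.99 to 83.5 TPM (median 80.3) in Lane 4, against 44.7 to 47.1 TPM in H1p43 and 42.9 to 48.0 TPM in H1p16 (0.85 ± 0.05). COL1A2 was at 56.7 to 69.3 TPM (median 63.5) in Lane 4, against 48.9 to 52.5 TPM in H1p43 and 28.2 to 30.2 TPM in H1p16 (0.71 ± 0.13). For COL1A2 the log2 fold change was 0.41 against H1p43 alone and 1.07 against H1p16 alone. COL2A1 was at 15.4 to 19.9 TPM (median 17.2) in Lane 4, against 11.5 to 12.2 TPM in H1p43 and 9.81 to 10.2 TPM in H1p16 (0.71 ± 0.07). COL5A1 rose by 0.57 ± 0.09, with 7.01 to 8.23 TPM (median 7.27) in Lane 4, and COL27A1 was not called, with 7.41 to 13 TPM (median 9.70). COL5A3 fell by 1.07 ± 0.30 on the log2 scale, at 0.395 ± 0.181 TPM in Lane 4, 1.097 ± 0.042 in H1p43 and 0.607 ± 0.040 in H1p16, and lost its call against H1p16 alone (adjusted p = 0.19).

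The COL4A1 and COL4A2 pair rose together but unequally. COL4A1 was at 88.2 to 98.6 TPM (median 94.1) in Lane 4, against 45.7 to 47.9 TPM in H1p43 and 40.2 to 43.9 TPM in H1p16 (log2 fold change 1.11 ± 0.05, adjusted p = 7.7e-12). COL4A2 was at 68.8 to 77.3 TPM (median 73.01) in Lane 4, against 52.3 to 52.6 TPM in H1p43 and 40.7 to 45.8 TPM in H1p16 (0.66 ± 0.05, adjusted p = 2.3e-08). Neither chain overlapped between library types. The ratio of COL4A1 to COL4A2 was 1.22 to 1.33 in Lane 4, against 0.868 to 0.986 in TruSeq. An exact two-sided permutation test gave p = 0.0022, the smallest that 6 against 6 libraries allow (adjusted 0.0032 over 6 ratios).

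The X-linked pair depended on which TruSeq group was used. COL4A5 was at 11.2 to 12.7 TPM (median 12.3) in Lane 4, against 12.2 to 13.4 TPM in H1p43 and 7.87 to 7.93 TPM in H1p16. COL4A6 was at 7.64 to 9.49 TPM (median 8.53) in Lane 4, against 9.58 to 9.76 TPM in H1p43 and 5.37 to 5.98 TPM in H1p16. Against H1p16 alone both were called higher, at 0.58 for each. Against H1p43 alone neither was called, at 0.02 (adjusted p = 0.79) for COL4A5 and -0.072 (adjusted p = 0.47) for COL4A6. Over all TruSeq libraries COL4A5 was called at 0.27 ± 0.12 (adjusted p = 0.048) and COL4A6 was not (0.21 ± 0.14).

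Among the other chains, 8 of 18 rose and 3 fell. COL21A1, a FACIT of vessel walls, was at 7.41 to 10.7 TPM (median 9.44) in Lane 4, against 2.28 to 3.20 TPM in H1p43 and 2.8 to 2.99 TPM in H1p16 (log2 fold change 1.74 ± 0.13, adjusted p = 7.4e-09). COL18A1 fell to 135.27 to 143.4 TPM (median 138.49) in Lane 4, against 202 to 207 TPM in H1p43 and 163.27 to 187 TPM in H1p16 (-0.40 ± 0.05, adjusted p = 1.1e-06). These 2 chains were separated without overlap, in opposite directions. COL6A1 fell to 39.8 to 49.8 TPM (median 44.3) in Lane 4, against 57.6 to 58.7 TPM in H1p43 and 60.3 to 68.7 TPM in H1p16 (-0.42 ± 0.08). COL6A2 was at 59.8 to 71.7 TPM (median 63.6) in Lane 4, against 55.3 to 58.9 TPM in H1p43 and 41.97 to 51 TPM in H1p16 (0.29 ± 0.07). Their ratio was 0.613 to 0.830 in Lane 4, against 0.998 to 1.44 in TruSeq (exact two-sided permutation p = 0.0022, adjusted 0.0032).

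COL9A1 was at 21.5 to 33.2 TPM (median 25.5) in Lane 4, against 21.3 to 21.5 TPM in H1p43 and 13.3 to 13.7 TPM in H1p16 (log2 fold change 0.61 ± 0.13). COL9A3 was at 36.7 to 45.03 TPM (median 40.5) in Lane 4, against 54.6 to 56.3 TPM in H1p43 and 36.96 to 42.8 TPM in H1p16 (-0.19 ± 0.09, adjusted p = 0.059). Lane 4 therefore overlapped H1p43 for the first of these chains and H1p16 for the second. COL23A1, at 11.9 to 16.7 TPM (median 14.1) in Lane 4, was called higher at 0.64 ± 0.21, but not against H1p43 alone (0.21, adjusted p = 0.11). COL25A1 (3.17 to 7.38 TPM in Lane 4, median 6.72) and COL9A2 (3.98 to 5.99 TPM, median 5.14) rose by 0.86 ± 0.20 and 0.73 ± 0.17. COL13A1 (3.87 to 6.76 TPM, median 4.49), COL14A1 (10.6 to 13.8 TPM, median 13.2) and COL16A1 (4.45 to 5.97 TPM, median 4.88) were not called. COL8A2 fell by 1.12 ± 0.40, at 1.26 ± 0.683 TPM in Lane 4, 4.09 ± 0.036 in H1p43 and 1.61 ± 0.216 in H1p16, and lost its call against H1p16 alone (adjusted p = 0.42).

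The size of these differences varied with base composition. Over 33 collagens, the log2 fold change of Lane 4 against TruSeq had a correlation of -0.46 with the GC content of the gene's GENCODE 29 transcripts (Spearman's rho -0.33). Over 13765 genes the correlation was -0.53 (rho -0.57). These are correlations across genes, which share libraries and are not independent replicates. The most increased collagens were at the low-GC end, with COL21A1 at 44.5% GC, COL5A2 at 47.9% and COL11A1 at 48.9%. COL18A1 and COL9A3 were at the GC-rich end, at 67.05% and 67.5%. The relation was loose: COL14A1 (46.7% GC) and COL12A1 (47.7%) had log2 fold changes of 0.12 and 0.43 and were not called. At the high-GC end COL2A1 (63.2%), COL7A1 (64.8%), COL9A2 (65.2%) and COL23A1 (65.96%) rose by 0.71, 0.58, 0.73 and 0.64. The collagens as a set were nevertheless richer in GC, with a median of 60.3% beside 49.6% over all genes tested. The part of GC content in the differences was not tested further.

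**Figure D4:**
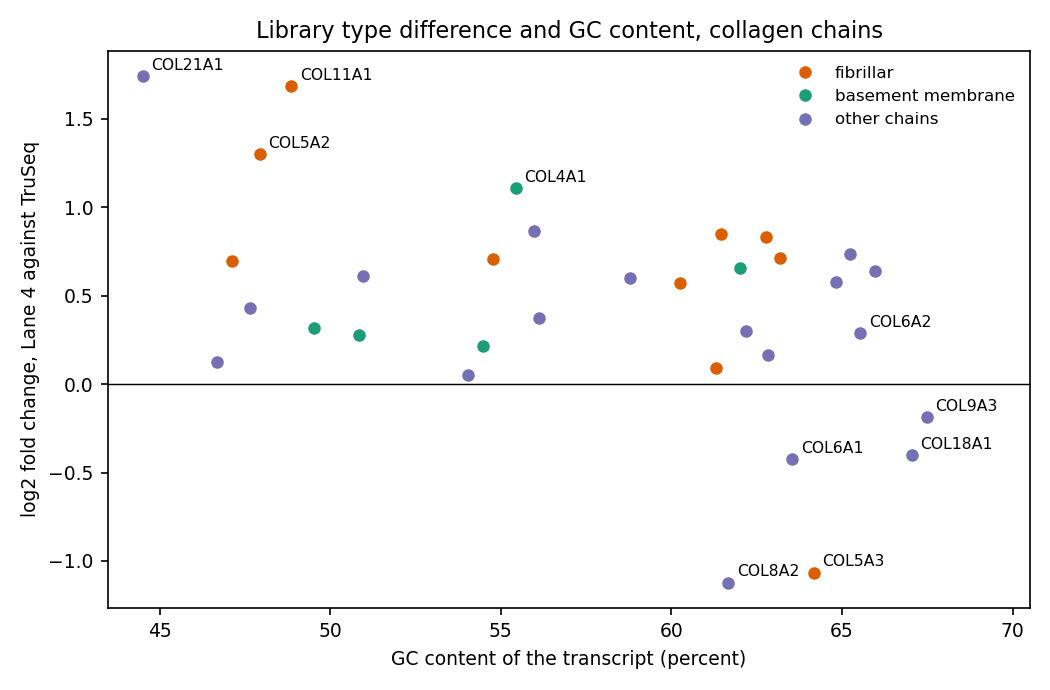
Log2 fold change of Lane 4 against TruSeq (vertical) by transcript GC content in percent (horizontal) for the 33 collagen chains tested, coloured by class. COL21A1, COL11A1 and COL5A2 stand at the upper left, while COL18A1 and COL9A3 stand below 0 at the right.

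The median log2 fold change of genes that act on collagen was -0.12 for folding enzymes, -0.53 for export, processing and crosslinking genes, -0.55 for receptors, -0.62 for degradation genes and -0.38 for other basement membrane genes. It was 0.57 for the chains and -0.06 for all genes, and the difference between lists was not tested. Of 16 folding enzymes, 5 rose and 7 fell in Lane 4, near the shares of all genes (34.3% higher, 36.9% lower), with PLOD1, a lysyl hydroxylase, at 16.7 ± 1.76 TPM in Lane 4 and 53.1 ± 7.80 in TruSeq (n = 6 each, log2 fold change -1.62 ± 0.08). Of 15 export, processing and crosslinking genes, 1 rose and 8 fell. The riser was MIA3, a transporter that loads procollagen into vesicles, at 1.2 ± 0.05, and PCOLCE, an enhancer of procollagen cleavage, was at -1.85 ± 0.10. Of 6 receptors 2 rose and 4 fell, of 8 degradation genes 1 rose and 5 fell, and of 11 other basement membrane genes 1 rose and 8 fell, HSPG2 among them at -1.52 ± 0.20. The fibroblast list summed to 338 to 392 TPM in Lane 4 and 701 to 734 TPM over the TruSeq groups, and its part was not tested.

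The third set of comparisons asked whether collagen levels moved with depth between LM-Seq lanes, over the library numbers that each lane shares with Lane 1. No collagen was called in Lane 2 (28 tested), Lane 3 (28 tested) or Lane 4 (32 tested) against Lane 1 by edgeR, nor by DESeq2 or limma. No collagen had an unadjusted p below 0.05 in any of these comparisons, against 1.798%, 1.99% and 1.25% of all genes for Lanes 2, 3 and 4. Of all genes, 0.0%, 0.0% and 0.0161% were called in Lanes 2, 3 and 4. These tests left out the library number, although libraries of 1 number deviated together between lanes, which can make unpaired p-values too high. With a block for the number, 26 of 10120 genes were called in Lane 2, 44 of 10871 in Lane 3 and 13 of 12419 in Lane 4. No collagen was among them. No collagen had ranges apart from Lane 1, where this was so for 0.0805% of genes in Lane 4. The chains above 5 TPM had log2 fold changes from -0.08 (COL16A1) to 0.05 (COL2A1) in Lane 2, from -0.22 (COL25A1) to 0.13 (COL16A1) in Lane 3, and from -0.17 (COL5A1) to 0.16 (COL21A1) in Lane 4. COL4A1 averaged 94.4 ± 8.63 TPM over the 95 libraries of Lane 1, 93.6 ± 8.15 over the 48 of Lane 2, 98.5 ± 5.48 over the 24 of Lane 3 and 93.4 ± 3.87 over the 6 of Lane 4.

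The spread among libraries was wide in Lane 1, where COL4A1 ran from 62.5 to 126.9 TPM (median 94.8) and COL18A1 from 115.03 to 165.77 TPM (median 143.93). In the 48 library numbers of Lane 1 that Lane 2 shares, the coefficient of variation was 6.41% for COL18A1, where counting error alone would give 5.14%. It was 10.5% for COL4A1 (counting error 5.77%), 11.6% for COL4A2 (6.57%) and 25.6% for COL9A1 (16.1%). COL5A1, at 19.1%, was near its counting error of 18.4%. Without libraries A and B it was 7.88% for COL4A1 (counting error 5.77%), 9.07% for COL4A2 (6.57%) and 21.04% for COL9A1 (16.3%). The type IV pair thus varied among libraries by more than counting error, in part through those libraries. COL5A1 varied by little more than its counting error.

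Whether that spread recurred was examined across the 48 library numbers present in both Lane 2 and Lane 1. Of 22 collagens tested, 16 had a correlation between lanes at an adjusted permutation p below 0.05, beside 72.2% of 9896 genes (100000 permutations, Benjamini-Hochberg over all genes). COL4A2 gave Pearson's r = 0.80 and Spearman's rho = 0.71 (adjusted permutation p 6.7e-05 and 1.0e-04). COL4A1 gave r = 0.70 and rho = 0.47 (adjusted permutation p 6.7e-05 and 0.0032). COL9A1 gave r = 0.61 and rho = 0.49 (adjusted permutation p 6.7e-05 and 0.0023). The raw p behind each of these r values, 1e-05, is the smallest that the permutations can give. Without the 2 libraries farthest from the Lane 1 median, r was 0.67, 0.51 and 0.45 for COL4A2, COL4A1 and COL9A1. COL2A1 (r = -0.07), COL16A1, COL5A1, COL1A2, COL21A1 and COL14A1 were not called. Between Lane 3 and Lane 1, over 24 shared numbers, 13 of 22 collagens were called, beside 52.4% of all genes. There COL2A1 had the highest value of the 22 collagens, r = 0.84 and rho = 0.86 (adjusted permutation p 1.8e-04 and 3.3e-04). Its call and its sign thus differed between the comparisons, which differ both in the lane and in the library numbers used. COL14A1 was also called there (r = 0.46), and COL4A5, COL9A3, COL13A1, COL23A1 and COL27A1 were not. Without libraries A and B, 11 of 22 collagens were called between Lane 2 and Lane 1, beside 62.4% of all genes, and COL4A5, COL5A2, COL6A2, COL9A3 and COL25A1 were no longer among them. COL4A2, COL4A1 and COL9A1 were still called (adjusted permutation p 1.0e-04, 0.0012 and 5.1e-04).

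Library A was singled out for its extreme collagen levels, and it also stood apart over all genes above 5 TPM. Its collagen values are therefore a description, and its count of highest collagens is no independent evidence. It had the highest value for 6 of 21 collagens above 5 TPM in Lane 1, 8 of 22 in Lane 2 and 10 of 22 in Lane 3. Of all genes above 5 TPM it had the highest value for 3.52% in Lane 1, 6.07% in Lane 2 and 8.84% in Lane 3. In Lane 1, Lane 2 and Lane 3 alike it had the highest COL4A1, COL4A2, COL11A1, COL9A1 and COL27A1 of all libraries. Its COL9A1 was 53.3 TPM in Lane 1, 41.01 in Lane 2 and 49.8 in Lane 3, where the medians of the others were 25.96, 24.6 and 24.9 TPM. Its COL4A1 was 126.9, 111.25 and 116.25 TPM in Lanes 1 to 3, and the highest of the others was 111.05 TPM in Lane 1 and 109.86 TPM in Lane 2. COL18A1, the leading chain, was lowest of all in this library in Lane 1 (115.03 TPM) and Lane 3 (125.65 TPM). Low extremes were common there: library A had the lowest value for 7.12% of all genes above 5 TPM in Lane 1, 13.2% in Lane 2 and 21.8% in Lane 3. Of the collagens, library A had the lowest value for 2 of 21, 0 of 22 and 1 of 22 in those lanes. Its pluripotency sum, 7956 TPM in Lane 1, was within the range of the others (7499 to 8570 TPM), and so was its fibroblast sum, 351 TPM (297 to 440 TPM). In Lane 2 its fibroblast sum, 331 TPM, ranked 47 of 48 from the top. In Lane 3 it was the lowest of 24 for the fibroblast sum (322 TPM, others 341 to 423), the cartilage and neural crest sum (6.61 TPM, others 8.71 to 15.2) and the trophoblast sum (6.32 TPM, others 8.22 to 20.1). What set the library apart was not tested.

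Finally, partners were sought within Lane 1. The correlation of 6 collagens (COL1A1, COL4A1, COL4A5, COL5A1, COL6A1 and COL11A1) with every gene above 5 TPM was taken over the 95 libraries, and p-values were adjusted over 9939 genes for each of the 6. The genes above 5 TPM included 21 collagens, so each of the 6 was paired with every other one of these. Called pairs of collagens numbered 4, all of them with COL4A1 or COL11A1. Whether collagens were called more often than other genes was not tested. COL4A1 with COL4A2 gave r = 0.48 (adjusted permutation p = 0.0045) and rho = 0.31 (adjusted 0.19), a rank of 27 among 9939 genes. Of all genes, 3.63% were called with COL4A1, which also correlated with COL27A1 (r = 0.38) and COL11A1 (r = 0.33). COL11A1, with which 2.14% of genes were called, also correlated with COL4A2 (r = 0.36). The COL4A1 and COL4A2 relation rested on libraries A and B: without them r was 0.28 (adjusted permutation p = 0.31), and no pair of collagens was called. In the 48 numbers shared with Lane 2, which include both, r was 0.57, and in the other 47 it was 0.18.

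Other pairs of chains that share a type were not called. COL1A1 with COL1A2 gave r = -0.0042 (rho 0.07), although 0.272% of genes were called with COL1A1. COL4A5 with COL4A6 gave r = -0.02, COL5A1 with COL5A2 gave 0.06 and COL6A1 with COL6A2 gave 0.10. No gene at all was called with COL4A5, COL5A1 or COL6A1. The gene ranked first for COL6A1 was COL4A2 (r = 0.43, rho = 0.40), at an adjusted permutation p of 0.099. Counting error at Lane 1 depth limits such relations, since COL4A6 averaged 30.5 counts and COL5A1 30.7 counts per library.

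**Figure D5:**
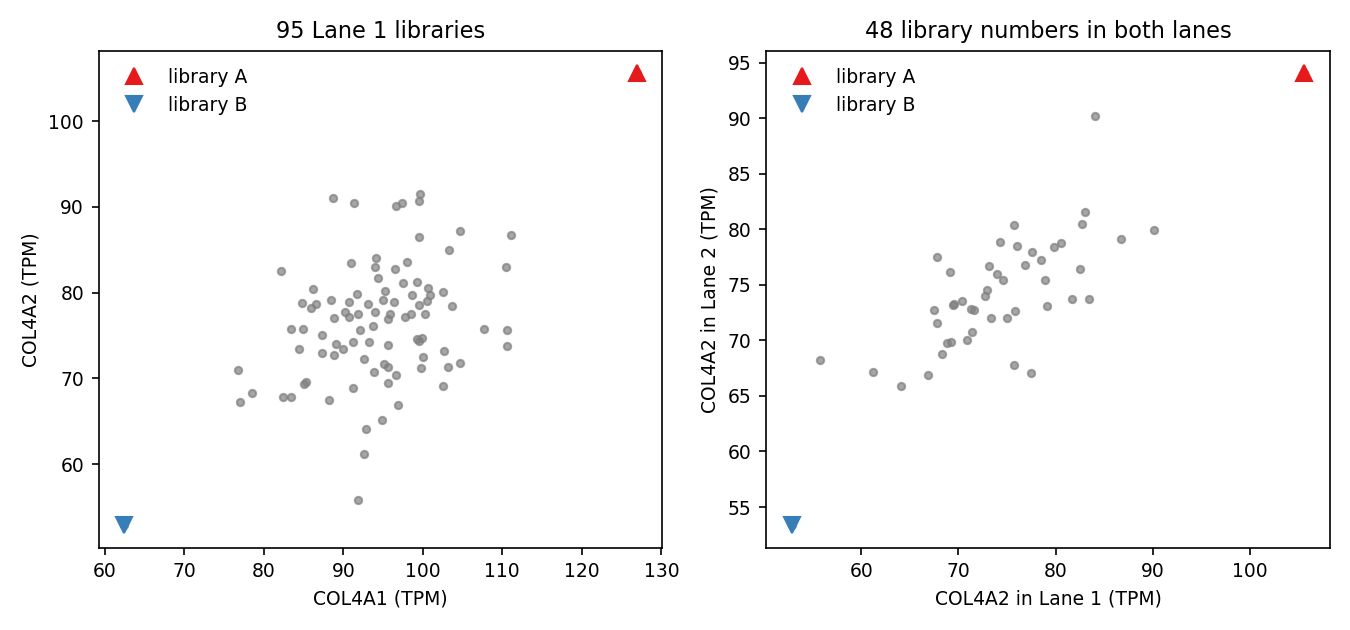
Left: COL4A2 against COL4A1 in TPM over the 95 Lane 1 libraries. Right: COL4A2 in Lane 2 against Lane 1 over the 48 shared library numbers; the triangles mark library A (highest) and library B (lowest), which lie beyond all other points for both chains.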

How the data were processed

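The submitters' processing notes name RSEM 1.2.3, Bowtie 0.12.8, CASAVA 1.8.2 and hg19. Deposited values were expected counts (estimated counts, which need not be whole) and TPM, which divides counts by transcript length and library total. How reads shared by overlapping or near-identical genes were placed is left to that model, and whether strand entered the counting was not stated. Every column matched a sample title.

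Expected counts were rounded and tested with edgeR 4.0.16 in R 4.3.3 (filterByExpr, TMM, quasi-likelihood test, Benjamini-Hochberg over all genes tested, adjusted p below 0.05). The members, lists, comparisons and tests were chosen with earlier results of these data known. Chains averaging 5 TPM or more in a group, the type IV chains, COL1A1, COL1A2, COL2A1 and COL3A1 were named, and lower ones if called with at least a 2-fold change; lower chains outside that rule were named after their values were seen. Lists gave counts and up to 3 called members of lowest adjusted p. Correlations used log2(TPM + 1), or TPM as an alternative, and permutation of library numbers. Promoter windows are RefSeq's for GRCh38.p14.

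Alternatives were DESeq2 1.42.0, limma 3.58.1, RLE factors, no filter, a 2-fold minimum, omission of each TruSeq replicate, other lanes, thinning, and a block for the replicate number. LM-Seq libraries of 1 number deviated together between lanes (r at least 0.168 in all pairs). The main tests between lanes were nevertheless unpaired. Only the block and the correlations between lanes took numbers as pairs, on the evidence of the data and not of the labels. H1p43 and H1p16 numbers did not pair (r at most 0.042). The scripts were tested on simulated data.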

Additional observations from a re-analysis of the deposited data

Results flagged for a closer look

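Among 28 collagens in the 6 Lane 4 libraries, 3 had 1 library far from the rest by Dixon's gap ratio, and chance flags about 1 in 20 such groups. COL5A1 reached 8.23 TPM in 1 library, where the next was 7.42 TPM (gap ratio 0.664). COL5A2 was at 42.86 TPM in 1 library, where the next was 47.97 TPM (0.681). COL14A1 was at 10.55 TPM in 1 library, where the next was 12.79 TPM (0.698). The 3 values came from 3 different libraries.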

How the results depend on the processing

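Without each TruSeq replicate in turn, 27 to 31 collagens were called in H1p43 against H1p16, and the replicate block gave 29, as without it. The block changed no collagen's call between lanes (0 in each). A 2-fold minimum left 2 collagens in H1p43 against H1p16 and 6 in Lane 4 against TruSeq; other settings stayed within 1.5 times of 29 and 22. COL1A1 turned to 0.027 with limma on log2(TPM + 1) and 0.028 on log2(TPM + 0.1), and COL4A6 to -0.072 against H1p43 alone. Collagen pairs called within Lane 1 numbered 2 in the 48 shared numbers, 0 in the other 47 and 0 without libraries A and B, an exclusion chosen after seeing the data. The correlation of COL2A1 between lanes turned to 0.84 with Lane 3 in place of Lane 2, over 24 library numbers in place of 48. Uncalled chain pairs changed sign: COL1A1 with COL1A2 was 0.10 in Lane 2 and 0.085 in the other 47 numbers, COL4A5 with COL4A6 was 0.12 and COL5A1 with COL5A2 -0.12 in Lane 2, and COL6A1 with COL6A2 was -0.063 in the 48 shared numbers. As shares of expected counts, which are not scaled by length, fibrillar chains made up 35.8% (Lane 4), 25.5% (H1p43) and 24.5% (H1p16), basement membrane chains 26.9%, 20.7% and 20.4%, and other chains 37.3%, 53.8% and 55.2%. With at least 5 counts required, 28.1, 30.1, 32.1 and 36.7 chains were detected in Lanes 1 to 4, 39.7 in H1p43 and 39.3 in H1p16. With at least 1 count required, thinning gave 33.98 in Lane 2, 33.8 in Lane 3, 35 in Lane 4, 35.7 in H1p43 and 34.3 in H1p16. Apart from settings whose construction shows the cause (a minimum fold, fewer libraries, unscaled counts, depth), the cause was not tested. Depth limits Lane 1 most, where COL13A1 averaged 8.44 counts over the 48 shared numbers.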

Other observations

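Library B, present in Lanes 1 and 2, had the lowest COL4A1, COL4A2 and COL5A2 of all libraries in both lanes. It was lowest for 5 of 21 collagens above 5 TPM in Lane 1 and 7 of 22 in Lane 2. Of all genes above 5 TPM it was lowest for 10.3% in Lane 1 and 16.6% in Lane 2. COL4A1 was 62.5 TPM in Lane 1 and 67.5 in Lane 2, where the medians of the others were 94.9 and 93.4 TPM. COL4A2 was 52.9 and 53.4 TPM, where those medians were 77.1 and 73.7 TPM. COL5A2 was 34.8 and 33.8 TPM, where the lowest of the others was 39.2 and 41.4 TPM. COL18A1 in this library, by contrast, was 145.21 TPM in Lane 1, where the median of the others was 143.93 TPM, and 127.83 TPM in Lane 2, where it was 140.35 TPM. These values are given without a test, since the library was picked for its extreme collagen levels.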
